A study of Mus musculus with 18 samples.

Results

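The genes described here are the replication-dependent histone genes of the mouse. They were chosen by symbol, as the genes of both count tables named H1f1 to H1f5 or H2ac, H2bc, H3c or H4c followed by a number. That rule found 67 of 41079 genes: 5 of linker histone H1, 18 of H2A, 19 of H2B, 12 of H3 and 13 of H4. On GRCm39, the build of the tables, 53 lie on chromosome 13, 10 on chromosome 3, 3 on chromosome 11 and 1 on chromosome 6. Their levels were followed in 18 RNA-seq libraries of mouse bone marrow cells selected for the surface receptor cKit. The 6 groups of 3 libraries each were AE9a cells given C16, AE9a cells given RE, AE9a cells given DMSO, WT cells given C16, WT cells given RE and WT cells given DMSO. AE9a is a splice form of the leukemia fusion of RUNX1 with RUNX1T1, and DMSO is the solvent control. The design text asks how NANOG and WDR5 bear on self-renewal and names inhibition of WDR5 and MLL1. The labels do not say which compound acts on which protein, at what dose or for how long, nor how AE9a was expressed or how many mice gave the cells.

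Histones H2A, H2B, H3 and H4 form the core particle that DNA winds around, and H1 binds the linker DNA between particles. The replication-dependent genes supply them during DNA synthesis. Most of their mRNAs lack a poly(A) tail and end in a short stem-loop bound by SLBP, although several of these genes also give polyadenylated mRNA, more so in cells that leave the cycle. Transcription in S phase runs through NPAT, which is phosphorylated by cyclin E with CDK2. The labels name total RNA and do not say whether polyadenylated RNA was selected. It therefore cannot be told whether the levels below cover the histone mRNA without a poly(A) tail or only a polyadenylated part.

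The stem-loop is shown for 7 members whose levels differed in the comparisons below or, for H4c9, that were the most abundant of their type. Capitals mark the 16 bases of the stem-loop, read from GENCODE vM21 transcripts on GRCm38, with 5 flanking bases on each side.
H1f2: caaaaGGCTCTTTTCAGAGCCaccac
H2ac18: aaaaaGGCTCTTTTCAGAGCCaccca
H2bc8: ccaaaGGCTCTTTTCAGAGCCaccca
H2bc11: ccaaaGGCTCTTTTCAGAGCCacgca
H3c3: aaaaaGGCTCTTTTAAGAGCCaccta
H3c8: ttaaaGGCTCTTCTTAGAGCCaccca
H4c9: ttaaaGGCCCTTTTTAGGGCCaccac
On GRCm38 these windows lie at chr13:23739507-23739532 for H1f2, chr3:96246027-96246052 for H2ac18, chr13:23571838-23571863 for H2bc8, chr13:22043633-22043658 for H2bc11 and chr13:23535884-23535909 for H3c8, all on the + strand. Those on the - strand are chr13:23745042-23745067 for H3c3 and chr13:22040961-22040986 for H4c9. H1f2, H2ac18, H2bc8 and H2bc11 carry the same 16 bases, whereas H3c3, H3c8 and H4c9 each differ from them. Of 62 members matched to a transcript, 42 held a stem-loop after the stop codon, with 8 different sequences, the commonest in 24 members. The same pattern, searched by its name as the histone 3' stem-loop over whole transcripts on the sense strand, was in 109 of 141767 transcripts (0.0769%). In 19 of the 42 the annotated transcript ran more than 100 bases past the stem-loop, and 13 held a poly(A) hexamer (AATAAA or ATTAAA) there, H1f2 and H4c9 among them.

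Promoters of 3 members are shown because their levels went different ways under the compounds, as given further on. They cover 250 bases before to 50 after the annotated start, from RefSeq on GRCm38.p6. Capitals mark the box CCAAT, the TATA box written as TATAAA, the octamer ATTTGCAT bound by POU factors, and TTTCGCGC, a site type of E2F factors, on either strand.
H1f2: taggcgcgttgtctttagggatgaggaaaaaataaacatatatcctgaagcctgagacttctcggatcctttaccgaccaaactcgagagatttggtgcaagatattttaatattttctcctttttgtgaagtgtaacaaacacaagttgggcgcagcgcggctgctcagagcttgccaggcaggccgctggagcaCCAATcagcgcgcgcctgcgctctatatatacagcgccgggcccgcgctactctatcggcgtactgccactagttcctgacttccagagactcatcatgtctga
H2bc8: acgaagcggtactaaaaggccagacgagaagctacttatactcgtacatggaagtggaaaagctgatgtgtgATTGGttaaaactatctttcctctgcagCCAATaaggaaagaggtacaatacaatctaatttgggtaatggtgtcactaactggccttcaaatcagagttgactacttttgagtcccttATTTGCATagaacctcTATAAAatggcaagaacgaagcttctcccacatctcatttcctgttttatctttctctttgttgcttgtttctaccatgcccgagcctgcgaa
H2bc11: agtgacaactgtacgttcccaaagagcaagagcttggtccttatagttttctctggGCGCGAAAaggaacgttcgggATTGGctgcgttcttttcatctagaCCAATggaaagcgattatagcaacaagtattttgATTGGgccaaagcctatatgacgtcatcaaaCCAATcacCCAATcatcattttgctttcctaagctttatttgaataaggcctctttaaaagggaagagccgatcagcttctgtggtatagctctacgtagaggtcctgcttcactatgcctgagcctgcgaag
They lie on the + strand at chr13:23738557-23738856 for H1f2, chr13:23571150-23571449 for H2bc8 and chr13:22042948-22043247 for H2bc11. CCAAT was in 50 of 58 member promoters (86.2%) and in 37.4% of all 32851 promoters. TATAAA was in 34 (58.6%), against 13.6% of all promoters. The octamer was in 13 (22.4%), all of them H2A or H2B genes, against 1.74% of all. TTTCGCGC was in 9 (15.5%), also all H2A or H2B genes, against 0.323% of all. None of the motifs is contained in another. Promoters of genes that start back to back share bases, so the counts are not independent. A match is a description of letters and no evidence of binding.

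Members are short and similar, which limits how well each can be told apart. Among 62 members with a coding sequence at hand, 4 pairs were identical (H2ac18 with H2ac19, H2ac23 with H2ac24, H3c14 with H3c15 and H4c17 with H4c18). A further look at near copies found 32 pairs, over 29 members, with at most 5 differing coding bases. The tables count primary alignments only, so a fragment fitting several copies was given to a single gene. Values of these copies are uncertain, and sums over a histone type are given beside them. H2ac25 also overlaps an exon of Trim17, and strand was not used in counting.

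The members took 41471 fragments in all, between 0.003745% and 0.01914% of a library, with library totals of 16053727 to 27207748 fragments. Of the 67 members, 44 had a fragment in all 18 libraries, 21 stayed under 10 fragments in every library and 2 (H2ac1 and H2ac25) were at 0 throughout. H1f2, the gene of linker histone H1.2, with H2bc4 and H4c9 held 66.3% of member fragments, and adding H2bc21 and H2bc8 brought this to 76.2%. Per kilobase of exon, H1f2 averaged 73.7 CPM (counts per 1000000 fragments of a library) over the 18 libraries and H4c9 21.8. On the same scale H2bc8 averaged 7.20, H2bc4 7.13, H2ac8 3.68, H3c3 3.50, H2ac11 3.09, H4c4 2.01, H3c6 1.496 and H1f3 0.713. H2bc4 is annotated with 2303 exon bases and H2bc21 with 2623, far more than a coding sequence of this family.

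Libraries that stood apart touch several results. Runx1t1, whose exons are in the AE9a fusion, was at 34.5 to 46.8 CPM in the AE9a RE and AE9a DMSO libraries and at 0 to 0.402 CPM in WT libraries. It was at 2.35, 4.06 and 0.205 CPM in AE9a C16 libraries 1, 2 and 3, so the library labelled AE9a C16 3 lay within the WT range. Kit, the gene selected on, was at 215 to 312 CPM in AE9a C16 libraries, 886 to 1551 CPM in AE9a RE and DMSO libraries, and 60.8 to 221 CPM in WT libraries. In each WT group the library numbered 2 differed from the other two by a root mean square of 0.68 to 0.98 (log2), where libraries 1 and 3 differed by 0.21 to 0.26. The library labelled WT C16 2 was closer to the AE9a C16 libraries (0.52 to 0.53) than to its own group. AE9a C16 3 differed from 1 and 2 by 0.48 and 0.5, which differed from each other by 0.19. Counts below are also given without these libraries.

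**Figure D1:**
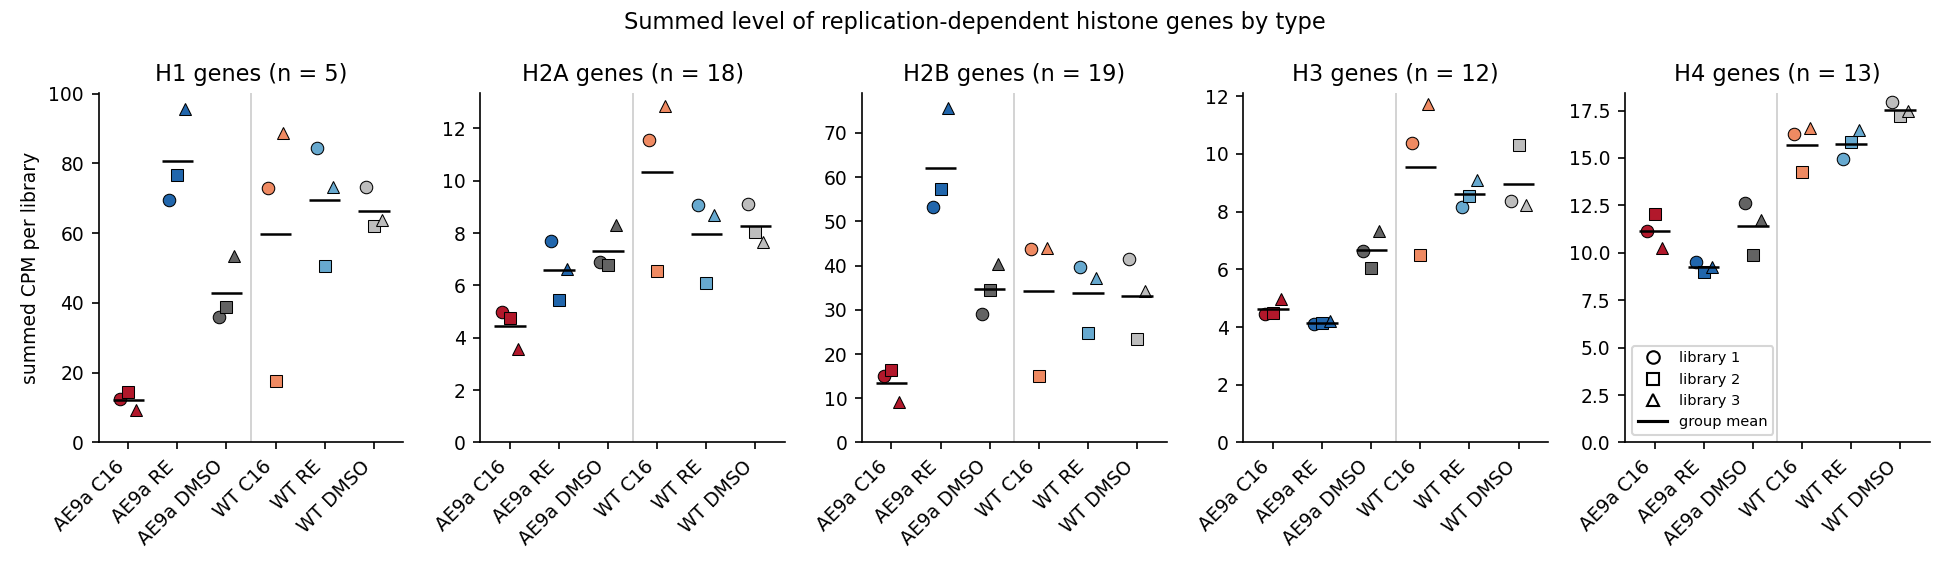
Summed level (CPM, linear axis from 0) of the members of each histone type in 18 libraries; markers are single libraries, lines are group means, and each panel has its own scale. H1 and H2B sums were lowest in AE9a C16 and highest in AE9a RE cells, while H3 and H4 sums were lower in all AE9a groups than in the WT groups by their means.

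The summed level of all 67 members was lowest in AE9a C16 cells and highest in AE9a RE cells. It was 45.8 ± 7.55 CPM in AE9a C16, 163 ± 25.3 CPM in AE9a RE and 103 ± 16.1 CPM in AE9a DMSO cells (SD, n = 3 each). In WT cells it was 130 ± 61.1 CPM under C16, 136 ± 26.6 CPM under RE and 134 ± 14.7 CPM under DMSO. The spread in WT C16 came with the library numbered 2, at 59.9 CPM, beside 155 and 174 CPM in the other two. H1 genes summed to 12.1 ± 2.55 CPM in AE9a C16, 80.7 ± 13.5 CPM in AE9a RE and 42.7 ± 9.37 CPM in AE9a DMSO cells. H2B genes summed to 13.5 ± 3.76, 62.0 ± 11.9 and 34.6 ± 5.70 CPM in the same 3 groups, and so followed the same order as H1. H4 genes did not follow it, with 11.1 ± 0.887, 9.25 ± 0.256 and 11.4 ± 1.39 CPM. H3 genes summed to 4.64 ± 0.292, 4.15 ± 0.0483 and 6.67 ± 0.652 CPM, lower under either compound than under DMSO in these means. Without H1f2, H2bc4 and H4c9, the other 64 members summed to 21.8 ± 2.51 CPM in AE9a C16, 38.5 ± 3.24 CPM in AE9a RE and 38.0 ± 3.25 CPM in AE9a DMSO cells. These sums are descriptions with no test. In bulk RNA, fewer cells of a type and less RNA per cell cannot be told apart.

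C16 against DMSO was first compared in the cells labelled AE9a. Runx1t1 was itself lower in AE9a C16 libraries (-4.08 ± 0.46, adjusted p = 4.4e-05), with AE9a C16 3 in the WT range, and the part of this in the changes below was not tested. Linker histone genes and the most abundant H2B genes fell, and no H3 or H4 gene passed the test. Of 67 members, 24 had enough fragments to be tested in the 9 AE9a libraries, and 10 of these fell (edgeR's quasi-likelihood test, Benjamini-Hochberg adjusted p under 0.05). Among all 14704 genes tested, 33.2% fell, and the count of members that fell was near this background. No member rose, where 33.1% of all genes rose. None was higher at an unadjusted p under 0.05 either and 11 were lower, where 5076 and 5096 of all 14704 genes were. DESeq2 called 0 members higher and 7 lower. With the spread estimated over all 18 libraries 6 were called, all lower: H1f2, H1f3, H2bc4, H2bc8, H2bc21 and H2ac13. How many of all genes DESeq2 or that fit called is not given here. The median log2 change was -0.64 over the 24 members and 0.003 over all genes. By type, 2 of 2 H1, 4 of 6 H2A, 4 of 6 H2B, 0 of 6 H3 and 0 of 4 H4 genes tested fell. In 12 of the 24, all C16 libraries lay below all DMSO libraries, and in none did they lie above. The same count over all genes is not given here, so whether 12 is unusual cannot be said.

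H1f2 (chromosome 13, 23922790 to 23923514 on GRCm39) was at 11.8, 13.5 and 8.88 CPM in AE9a C16 libraries, against 34.3, 37.2 and 51.9 CPM in AE9a DMSO libraries. The groups did not overlap, and H1f2 fell by 1.81 ± 0.21 (log2 change with its standard error; adjusted p = 5.4e-05). H1f3, the gene of H1.3, was at 0.150, 0.158 and 0.0513 CPM in C16, against 0.460, 0.588 and 0.662 CPM in DMSO libraries. These C16 values rest on 3, 4 and 1 fragments, and H1f3 fell by 2.13 ± 0.44 (adjusted p = 0.002).

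Among H2B genes, H2bc4 was at 5.65, 6.43 and 2.41 CPM in C16, against 12.9, 15.7 and 19.5 CPM in DMSO libraries. It fell by 1.67 ± 0.32 (adjusted p = 0.0013), with no overlap and the lowest value in the library labelled AE9a C16 3. H2bc21, a chromosome 3 gene known in mouse olfactory neurons as a variant H2B, was at 3.65, 4.14 and 2.62 CPM in C16, against 7.36, 10.6 and 9.83 CPM in DMSO libraries. It fell by 1.37 ± 0.19 (adjusted p = 0.00017), and the groups again did not overlap. H2bc8 was at 1.049, 0.907 and 0.205 CPM in C16, against 1.33, 2.095 and 4.58 CPM in DMSO libraries. Its fall of 1.81 ± 0.58 (adjusted p = 0.02) leaned on AE9a DMSO 3, without which it was -1.21 with an adjusted p of 0.076. H2bc11 was at 1.049, 1.18 and 1.64 CPM in C16, against 2.20, 1.87 and 1.94 CPM in DMSO libraries, a smaller fall of 0.60 ± 0.21 (adjusted p = 0.031). The call on H2bc11 was lost when any of AE9a C16 1, AE9a C16 2 or the 3 AE9a DMSO libraries was left out (adjusted p 0.050 to 0.094).

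The H2A genes that fell were H2ac18, H2ac19, H2ac13 and H2ac11. H2ac18 and H2ac19 have the same coding sequence, so their sum is the safer value. Together they were at 0.450, 0.118 and 0.359 CPM in C16, against 0.971, 0.661 and 1.53 CPM in DMSO libraries, with no overlap. H2ac18 by itself fell by 1.90 ± 0.46 (adjusted p = 0.0049; 0.123 with the spread of all 18 libraries). H2ac19 fell by 1.57 ± 0.60 (adjusted p = 0.043), which no longer passed when AE9a C16 1, AE9a C16 2 or AE9a DMSO 3 was left out (adjusted p 0.050 to 0.157). H2ac13 was at 0.150, 0.316 and 0.154 CPM in C16, against 0.818, 0.625 and 0.560 CPM in DMSO libraries, and fell by 1.57 ± 0.33 (adjusted p = 0.0022). H2ac11 was at 0.749, 1.42 and 0.718 CPM in C16, against 1.84, 1.87 and 1.63 CPM in DMSO libraries. Its fall of 0.82 ± 0.29 (adjusted p = 0.032) was lost without AE9a C16 1, AE9a C16 3, AE9a DMSO 1 or AE9a DMSO 2 (adjusted p 0.066 to 0.096). H2ac8 did not pass the test (-0.52 ± 0.26, adjusted p = 0.11).

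H4c9, by far the most abundant H4 gene here, was at 7.44, 8.68 and 7.23 CPM in AE9a C16, against 8.54, 6.10 and 8.15 CPM in AE9a DMSO libraries. The groups overlapped (0.08 ± 0.14, adjusted p = 0.63). H4c4 overlapped as well, at 0.699, 0.710 and 0.975 CPM in C16 and 0.869, 0.662 and 0.866 CPM in DMSO libraries. Of the H3 genes, H3c3 was at 1.599, 1.18 and 1.74 CPM in C16, against 1.89, 1.84 and 2.14 CPM in DMSO libraries, without overlap, but the difference missed the threshold (-0.35 ± 0.19, adjusted p = 0.13). H3c6 came closest to the threshold in that type (-0.74 ± 0.30, adjusted p = 0.053). The difference between histone types in their response was not tested. Without the library labelled AE9a C16 3, 0 members rose and 9 fell of 25 tested. In that fit 4748 of all 15009 genes tested rose and 4974 fell.

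**Figure D2:**
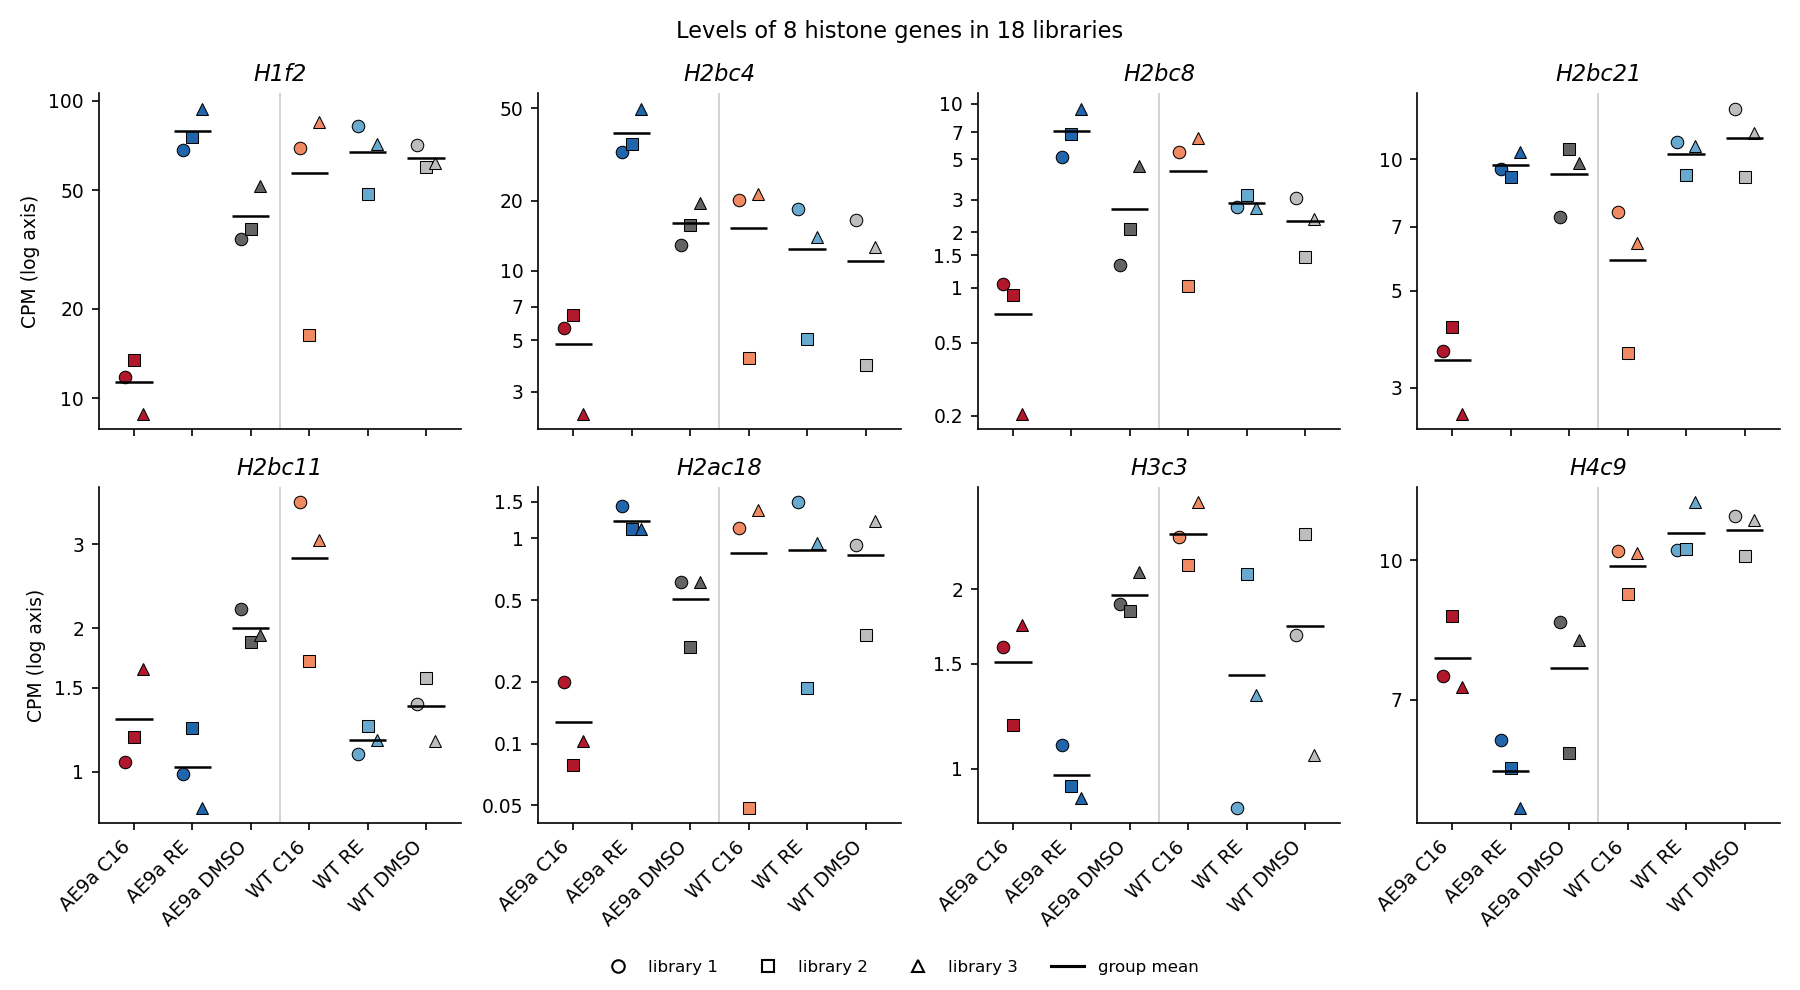
Level (CPM, log axis) of 8 members in each of 18 libraries, with a line at the mean of each group of 3; each panel has its own scale. H1f2, H2bc4, H2bc8 and H2ac18 sit lowest in AE9a C16 and highest in AE9a RE among the AE9a groups, H2bc11 and H3c3 sit below AE9a DMSO in both, and H4c9 shows a narrow range.

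Most listed genes that handle histones and DNA replication rose under C16 in AE9a cells. Of the 24 histone members tested, 10 fell and 14 were not called. All 32 DNA replication genes of the list rose, with a median log2 change of 0.70, among them Rrm2 of ribonucleotide reductase (1.01), Gins2 of the replicative helicase (0.98) and Mcm5 of the same helicase (0.94). Their summed level was 5610 to 5720 CPM in C16 and 3182 to 3694 CPM in DMSO libraries. Of 23 histone chaperones, 19 rose and 2 fell (median 0.54), including Nasp, which holds soluble H3 and H4 (1.01), and Ssrp1 of the FACT complex (0.95) and Asf1a (0.89). Of 20 genes of histone transcription and 3' end processing, 14 rose and 2 fell (median 0.34). The cyclin E genes Ccne2 (0.95) and Ccne1 (0.84) rose, as did Slbp (0.53) and Npat (0.36), and Tut7, which adds uridines to histone mRNA, fell by 0.92. Of 10 replication-independent histone genes tested, 6 rose and 1 fell (median 0.45). Macroh2a2 (1.55) and Macroh2a1 (0.92) rose, whereas H1f0, the linker histone of non-dividing cells, fell by 1.29. H2ax was listed at 0 in all 18 libraries. These lists were chosen with earlier results of the same data known. Without AE9a C16 3, all 32 DNA replication genes rose, and 19 chaperones and 14 processing genes were called higher.

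Markers of other cell types moved with the same comparison. Among erythroid markers 7 of 8 fell, with summed levels of 2.36 to 32.02 CPM in C16 and 544 to 703 CPM in DMSO libraries. Mast cell and basophil markers fell in 6 of 7 (230 to 1323 CPM in C16, 5844 to 7269 CPM in DMSO). Maturing neutrophil markers fell in 7 of 8 (1389 to 1756 CPM in C16, 3169 to 3721 CPM in DMSO) and megakaryocyte markers in 6 of 8 (58.6 to 149 CPM in C16, 265 to 389 CPM in DMSO). Of 5 markers of cKit-positive progenitors, 3 rose and Kit itself fell. Their part in the changes of the histone genes was not tested.

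RE against DMSO in AE9a cells gave a split picture. Of the 24 members tested 5 rose (H1f2, H2bc4, H2bc8, H2bc6 and H2ac18) and 4 fell (H3c3, H3c8, H2bc11 and H2ac13). Among all genes tested 12.2% rose and 16.8% fell. The median log2 change was -0.51 over the 24 members and -0.008 over all genes. By type, 1 of 2 H1 genes rose, 1 of 6 H2A genes rose and 1 fell, 3 of 6 H2B genes rose and 1 fell, 2 of 6 H3 genes fell, and none of 4 H4 genes was called. In 6 members all RE libraries lay above all DMSO libraries, in 10 they lay below, and in 8 the groups overlapped. The share of all genes without overlap is not given here, so these counts have no background. When the spread was estimated over all 18 libraries, none of these 9 calls held, and 0 of 39 members were called. The count was 5 without AE9a RE 3 and 4 without AE9a DMSO 1.

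H1f2 was at 68.1, 75.4 and 94.0 CPM in AE9a RE libraries, against 34.3, 37.2 and 51.9 CPM in AE9a DMSO libraries. All RE values lay above all DMSO values, and H1f2 rose by 0.99 ± 0.19 on the log2 scale (adjusted p = 0.0057; 0.19 with the spread of all 18 libraries). H2bc4 was at 32.3, 35.01 and 49.8 CPM in RE, against 12.9, 15.7 and 19.5 CPM in DMSO libraries, again without overlap. It rose by 1.33 ± 0.28 (adjusted p = 0.0087; 0.24 with the spread of all 18 libraries). H2ac18 with its copy H2ac19 summed to 2.47, 1.83 and 2.16 CPM in RE, against 0.971, 0.661 and 1.53 CPM in DMSO libraries. H2ac18 by itself rose by 1.33 ± 0.31 (adjusted p = 0.013), and under DESeq2 it stood at the threshold (adjusted p = 0.05). H2bc8 was at 5.16, 6.90 and 9.42 CPM in RE, against 1.33, 2.095 and 4.58 CPM in DMSO libraries. Its rise of 1.48 ± 0.46 (adjusted p = 0.04) was lost without AE9a RE 2, AE9a RE 3, AE9a DMSO 1 or AE9a DMSO 2 (adjusted p 0.1 to 0.133). H2bc6 was at 1.92, 1.36 and 2.31 CPM in RE, against 0.920, 0.698 and 1.17 CPM in DMSO libraries. That rise of 1.06 ± 0.29 (adjusted p = 0.024) was lost without AE9a RE 1, AE9a RE 3, AE9a DMSO 1 or AE9a DMSO 2 (adjusted p 0.059 to 0.088).

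Of the genes that fell under RE, H3c3 was at 1.10, 0.937 and 0.894 CPM in RE, against 1.89, 1.84 and 2.14 CPM in DMSO libraries. It did not overlap and fell by 0.96 ± 0.20 (adjusted p = 0.0079; 0.159 with the spread of all 18 libraries). H3c8 was at 0.1098, 0.128 and 0.263 CPM in RE, against 0.460, 0.367 and 0.713 CPM in DMSO libraries, the RE values resting on 2, 3 and 5 fragments. H3c8 fell by 1.53 ± 0.48 (adjusted p = 0.043), which no longer passed when AE9a RE 1, AE9a RE 2, AE9a DMSO 1 or AE9a DMSO 3 was left out (adjusted p 0.089 to 0.148). H2bc11 was at 0.988, 1.23 and 0.842 CPM in RE, against 2.20, 1.87 and 1.94 CPM in DMSO libraries. It fell by 0.91 ± 0.22 (adjusted p = 0.015), lost without AE9a RE 3 or AE9a DMSO 1 (adjusted p 0.057 to 0.058). H2ac13 was at 0.330, 0.298 and 0.263 CPM in RE, against 0.818, 0.625 and 0.560 CPM in DMSO libraries. Its fall of 1.11 ± 0.32 (adjusted p = 0.029) was lost without any of the 3 RE libraries, AE9a DMSO 1 or AE9a DMSO 2 (adjusted p 0.058 to 0.103). H2bc21 (0.10 ± 0.18, adjusted p = 0.7) and H4c9 (-0.33 ± 0.14, adjusted p = 0.12) did not pass the test.

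**Figure D3:**
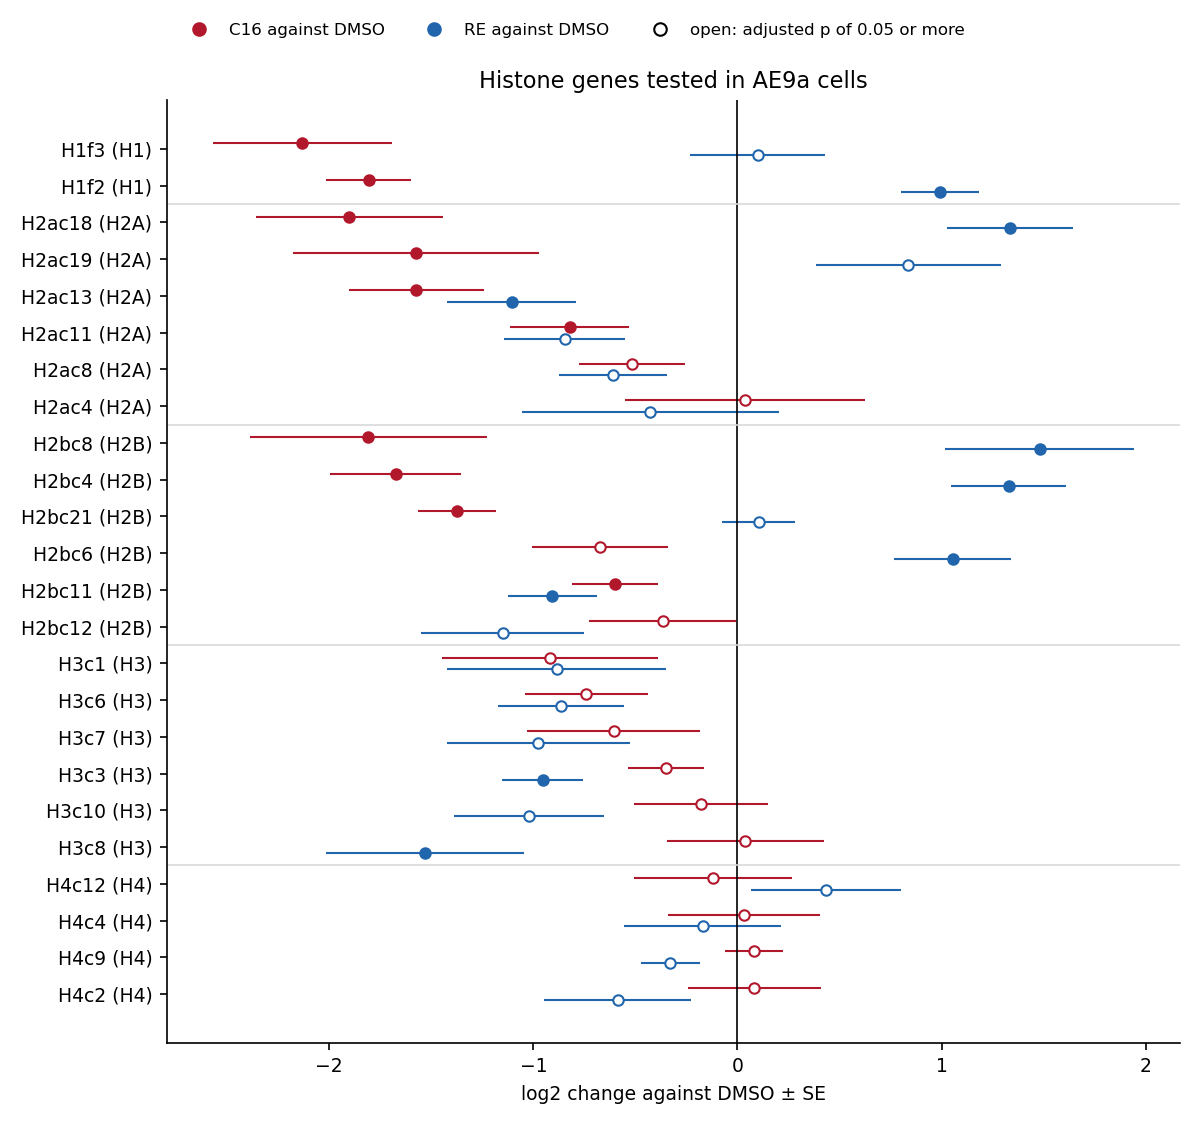
Log2 change ± SE against DMSO of the 24 members tested in AE9a cells, C16 above RE in each row, filled where the adjusted p was under 0.05. H1f2, H2ac18, H2bc4 and H2bc8 are filled on the left for C16 and on the right for RE, while H2bc11 and H2ac13 are filled on the left for both; both sets share the DMSO libraries.

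Sequence and position can be set beside the RE response. H1f2, H2ac18 and H2bc8, which rose, and H2bc11, which fell, have the same stem-loop shown above. Of the members that rose, 4 of 4 with a promoter sequence held CCAAT, as did 4 of 4 of those that fell. TATAAA was in 2 of the 4 that rose, in none of the 4 that fell and in 8 of 12 that were not called. Under C16 it was in 3 of 8 that fell and in 7 of 12 that were not called. In 2 divergent pairs, in which an H2A and an H2B gene start back to back, both genes were tested. H2ac8 and H2bc8 start 180 bases apart, and under RE H2bc8 rose (1.48) while H2ac8 was at -0.61 and not called. H2ac11 and H2bc11 start 249 bases apart, with -0.85 (not called) and -0.91 (called).

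Under RE in AE9a cells most of the listed DNA replication genes and chaperones fell. Of 32 DNA replication genes 30 fell and none rose (median -0.50), among them Gins1 (-0.76), Mcm6 (-0.67) and the loading factor Cdc6 (-0.66). Their summed level was 2235 to 2536 CPM in RE and 3182 to 3694 CPM in DMSO libraries. Of 23 chaperones 16 fell and 2 rose (median -0.26), with Chaf1a of the CAF-1 complex at -0.56, Nasp at -0.43 and Asf1b at -0.39. Of 20 transcription and 3' end processing genes 10 fell and none rose (median -0.16), including Zfp473 (-0.58), Npat (-0.43), Casp8ap2 (-0.33) and Slbp (-0.32). Of 10 replication-independent histone genes 4 fell and none rose, Macroh2a1 by 0.66. Erythroid markers summed to 361 to 453 CPM in RE and 544 to 703 CPM in DMSO libraries, and 3 of 8 fell. Mast cell and basophil markers summed to 9441 to 10350 CPM in RE and 5844 to 7269 CPM in DMSO libraries, with none called. Monocyte and macrophage markers summed to 383 to 631 CPM in RE and 766 to 801 CPM in DMSO libraries, and 4 of 6 fell. Of 5 progenitor markers 3 fell (Flt3, Mpo and Myb) and Kit rose. Of 8 maturing neutrophil markers 3 rose and 1 fell, and of 8 megakaryocyte markers 1 rose. Their part was not tested.

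**Figure D4:**
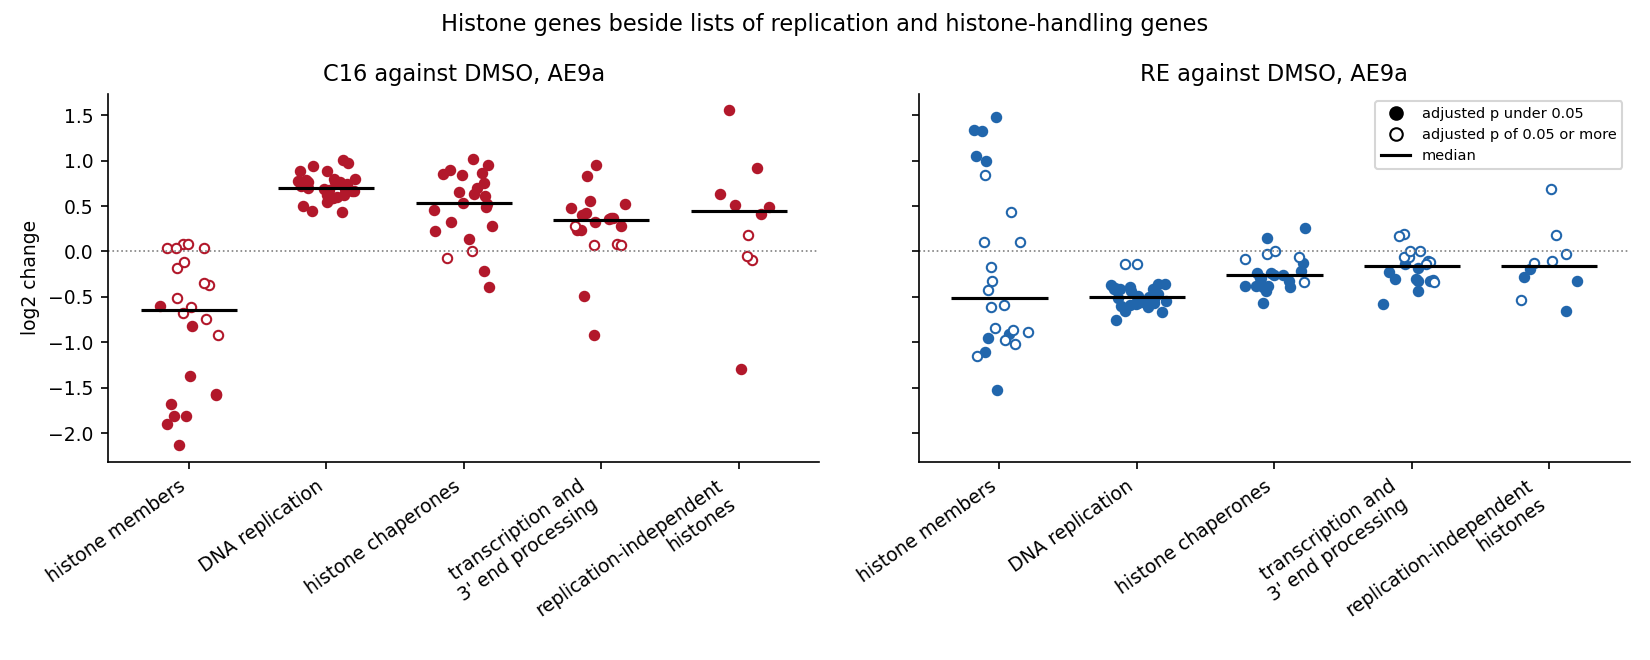
Log2 change of each tested gene in AE9a cells for C16 against DMSO (left) and RE against DMSO (right), with a line at the median, filled where the adjusted p was under 0.05. Under C16 the DNA replication genes lie above 0 (median 0.70) and the histone members mostly below (median -0.64); under RE the DNA replication median is -0.50 and the histone members spread to both sides.

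C16 against RE in AE9a cells compares the compounds directly. Of 24 members 8 were lower under C16 and 3 higher, where 37.2% of all genes were lower and 37.5% higher. The median was 0.06 over the members and 0.007 over all genes. H1f2 stood at 11.8, 13.5 and 8.88 CPM in C16 and 68.1, 75.4 and 94.0 CPM in RE libraries, a log2 difference of -2.80 ± 0.21 (adjusted p = 2e-06). H2bc4 differed by -3.0 ± 0.32 (adjusted p = 1.8e-05), H2bc8 by -3.29 ± 0.54 (adjusted p = 0.0004), and H2ac18 by -3.24 ± 0.40 (adjusted p = 5.6e-05). The others lower under C16 were H2ac19 (-2.41), H1f3 (-2.23), H2bc6 (-1.73) and H2bc21 (-1.48). These 8 calls were kept in all 12 alternatives tried. The 3 higher under C16 were H3c8 (1.57 ± 0.48, adjusted p = 0.015), H3c3 (0.61 ± 0.20, adjusted p = 0.022) and H4c9 (0.41 ± 0.14, adjusted p = 0.027). DESeq2 called none of the 3. H3c8 was lost without AE9a C16 2, AE9a RE 1 or AE9a RE 2 (adjusted p 0.054 to 0.068). H3c3 was lost without AE9a C16 1, AE9a C16 3, AE9a RE 2 or AE9a RE 3 (adjusted p 0.069 to 0.086), and H4c9 without AE9a C16 1, AE9a C16 2, AE9a RE 2 or AE9a RE 3 (adjusted p 0.051 to 0.102). Dose and time of either compound are not in the labels, so this is a difference between these treatments as given. Runx1t1 was lower under C16 here as well (-4.12), as were 7 of 8 erythroid, 6 of 7 mast cell and basophil and 8 of 8 megakaryocyte markers, and their part was not tested.

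In WT cells, neither compound gave a called change of a member against DMSO when all 3 libraries of each group were used. Under C16, 0 of 38 members tested were called, where 3.1% of 15046 genes were. At an unadjusted p under 0.05, 3 were higher and 3 lower, where 1701 and 1729 of all 15046 genes were. DESeq2 called 3 members. Without the library labelled WT C16 2 alone, 3 were called. The median log2 change was 0.12 over the members and 0.011 over all genes. With the replicate number as a block, 4 were called: H2ac13 (1.93) and H2bc11 (1.07) higher, H2bc21 (-0.90) and H2bc27 (-2.68) lower. How many of all genes were called in these alternatives is not given here. H1f2 was at 69.6, 16.3 and 85.2 CPM in WT C16 libraries, against 71.0, 59.9 and 61.8 CPM in WT DMSO libraries. The low value was that of the library labelled WT C16 2, and the groups overlapped (-0.12 ± 0.49, adjusted p = 0.91). Without the 3 WT libraries numbered 2 the H1f2 value was above 0, at 0.28 ± 0.12 (adjusted p = 0.083). H2bc4 was at 20.1, 4.20 and 21.3 CPM in WT C16, against 16.5, 3.94 and 12.6 CPM in WT DMSO libraries, so the library numbered 2 was the lowest in both groups.

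Without the 3 WT libraries numbered 2, 14 of 39 members were called for C16 against DMSO in WT cells. The share called, both directions together, was not above that of all genes in the same fit. Here 12 rose and 2 fell, where 3168 of all 15198 genes tested rose and 3173 fell. H2ac13 rose by 2.65 ± 0.44 (adjusted p = 0.0015), with 1.22 and 1.85 CPM in WT C16, against 0.173 and 0.317 CPM in WT DMSO. H2bc11 rose by 1.46 ± 0.24 (adjusted p = 0.0016), at 3.67 and 3.06 CPM in WT C16 and 1.38 and 1.16 CPM in WT DMSO. H2bc8 (1.19), H2ac11 (1.15), H3c3 (1.0) and H2bc4 (0.56) rose as well. H2bc21 fell by 0.75 ± 0.14 (adjusted p = 0.0024) and H2bc27 by 3.01 ± 0.51 (adjusted p = 0.0017). Each group then holds 2 libraries. In the same fit 8 of 8 megakaryocyte markers rose (median 1.94), 4 of 4 B lineage markers fell (median -2.83), and of 6 monocyte and macrophage markers 5 fell and 1 rose. With all WT libraries 0 of 8 megakaryocyte markers were called, and 3 of 4 B lineage and 2 of 6 monocyte and macrophage markers fell. Their part in the changes of the histone genes was not tested.

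RE against DMSO in WT cells called 0 of 38 members, where 0.0266% of all genes were called. None was under an unadjusted p of 0.05, where 665 of all 15046 genes were, and DESeq2 and the block called none. H1f2 was at 82.4, 48.7 and 71.3 CPM in WT RE, against 71.0, 59.9 and 61.8 CPM in WT DMSO libraries, with overlap. C16 against RE in WT cells called H2bc11 higher (1.29 ± 0.31, adjusted p = 0.037) and H2bc27 lower (-3.56 ± 0.96, adjusted p = 0.049), 1 of 38 in each direction, where 5.4% of genes were higher and 6.49% lower. H2bc11 was at 3.67, 1.71 and 3.06 CPM in WT C16 and 1.09, 1.25 and 1.17 CPM in WT RE libraries, without overlap. H2bc27 was at 0.255, 0.0976 and 0.0527 CPM in WT C16 and 2.58, 0.374 and 2.22 CPM in WT RE libraries, also without overlap. The H2bc11 call was lost without WT C16 1, WT C16 3 or any WT RE library (adjusted p 0.073 to 0.121). The H2bc27 call was lost without any WT C16 library, WT RE 1 or WT RE 3 (adjusted p 0.088 to 0.134), and no member was called without a filter on low counts. With the replicate block 5 members were called, 3 higher and 2 lower, and the count over all genes with it is not given here. Without the libraries numbered 2, 9 of 39 members were higher and 2 lower. In that fit 3478 of all 15198 genes tested were higher and 3259 lower. With all WT libraries 0 of 32 DNA replication genes were called under C16 or RE against DMSO. Without those numbered 2, 7 rose and 2 fell under C16, and 1 fell under RE.

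AE9a against WT cells under DMSO compares the cells of the 2 labels without a compound, and the part of the fusion itself was not tested. Of 39 members tested 4 were lower in AE9a cells and none was higher, where 13.8% of 15809 genes were lower and 12.9% higher. No member was higher at an unadjusted p under 0.05 and 8 were lower, where 2772 and 3345 of all 15809 genes were. DESeq2 called 0 members higher and 3 lower, and its count over all genes is not given here. The median log2 difference was -0.49 over the members and -0.054 over all genes, with 30 of 39 members negative. H2bc6 was at 0.920, 0.698 and 1.17 CPM in AE9a DMSO, against 2.54, 2.75 and 2.48 CPM in WT DMSO libraries (-1.47 ± 0.29, adjusted p = 0.0018). H3c6 was at 0.971, 0.735 and 0.916 CPM in AE9a DMSO, against 1.96, 2.19 and 2.80 CPM in WT DMSO libraries (-1.39 ± 0.30, adjusted p = 0.0032). In neither gene did the groups overlap, and both calls were kept in all 12 alternatives. H4c9 was at 8.54, 6.10 and 8.15 CPM in AE9a DMSO, against 11.2, 10.1 and 11.1 CPM in WT DMSO libraries (-0.49 ± 0.13, adjusted p = 0.01), which missed the threshold when AE9a DMSO 2 was left out (-0.35, adjusted p = 0.058). H4c18, which shares its coding sequence with H4c17, was at 0.205, 0.1103 and 0.153 CPM in AE9a DMSO, against 0.289, 0.562 and 0.739 CPM in WT DMSO libraries. It differed by -1.74 ± 0.56 (adjusted p = 0.034), lost without any AE9a DMSO library, WT DMSO 2 or WT DMSO 3 (adjusted p 0.057 to 0.135). H1f2 did not pass the test (-0.62 ± 0.40, adjusted p = 0.27), but without the WT libraries numbered 2 it was called at -0.66. In that fit, of 41 members tested, 2 were higher, H2ac13 (1.44) and H2bc11 (0.69), and 8 were lower. Of all 16127 genes tested there, 4003 were higher and 4169 lower. With all libraries 0 of 32 DNA replication genes were called (median -0.03), and without the WT libraries numbered 2 there were 16 higher and 2 lower in AE9a cells (median 0.19). Kit was higher in AE9a cells (3.28 ± 0.33, adjusted p = 1e-05). Markers of other cells differed too, with 5 of 8 erythroid markers higher (summed 544 to 703 CPM in AE9a DMSO, 12.5 to 39.2 CPM in WT DMSO). Of 7 mast cell and basophil markers 5 were higher and 1 lower. Lower were also 3 of 8 megakaryocyte, 1 of 8 maturing neutrophil and 1 of 6 monocyte and macrophage markers. Their part was not tested.

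The response to C16 differed between AE9a and WT cells for 4 of 39 members by an interaction term. All 4 had the lower change in AE9a cells, where 8.29% of all genes had a lower and 4.78% a higher one. At an unadjusted p under 0.05, no member had a higher change and 9 had a lower one, where 2451 and 2531 of all 15809 genes had. DESeq2 called 0 members higher and 7 lower. H2ac13 fell in AE9a cells (-1.57) and was at 1.90 ± 0.48 in WT cells, where it did not pass the test (adjusted p = 0.074), a difference of -3.44 ± 0.59 (adjusted p = 0.0022). H2bc11 fell in AE9a cells (-0.60) and was at 1.08 ± 0.30 in WT cells (adjusted p = 0.092), a difference of -1.63 ± 0.37 (adjusted p = 0.011). Both differences kept their calls in all 19 alternatives. H1f3 differed by -2.49 ± 0.66 (adjusted p = 0.024), lost without AE9a C16 3, AE9a DMSO 2, AE9a DMSO 3, WT C16 1, WT C16 3 or WT DMSO 2 (adjusted p 0.051 to 0.070). H2ac11 differed by -1.52 ± 0.45 (adjusted p = 0.041), a call lost in 10 alternatives, among them those without AE9a C16 1, AE9a C16 3, any AE9a DMSO library, WT C16 1, WT C16 3, WT DMSO 1 or WT DMSO 3 (adjusted p 0.061 to 0.118). H1f2 (-1.64 ± 0.57, adjusted p = 0.071) and H2bc8 (-2.73, adjusted p = 0.056) did not pass the test. With the replicate block 10 members were called, and without the WT libraries numbered 2 there were 14 of 41 tested. In the latter fit 3382 of all 16127 genes tested had a lower change and 4656 a higher one. All 14 members had the lower change in AE9a cells, H1f2 (-2.02), H2bc4 (-2.18) and H2bc8 (-2.94) among them. Also leaving out the library labelled AE9a C16 3, an alternative chosen after seeing the data, gave 13. Leaving out WT C16 2 alone gave 10, and leaving out AE9a C16 3, AE9a DMSO 2, AE9a DMSO 3, WT C16 1 or WT C16 3 gave 2. Apart from the fit without the WT libraries numbered 2, the counts over all genes in these alternatives are not given here. Of 32 DNA replication genes 2 had a higher change in AE9a cells with all libraries, and all 32 did without the WT libraries numbered 2. Under the same term, with all libraries, 6 of 8 erythroid and 3 of 7 mast cell and basophil markers had a lower change in AE9a cells, and their part was not tested. The response to RE differed for 0 of 39 members, as for 0% of all genes, and for 0 members by DESeq2. At an unadjusted p under 0.05 there were 4 members, where 676 of all 15809 genes were. None of 32 DNA replication genes was called there with all libraries, and 7 had a lower change in AE9a cells without the WT libraries numbered 2.

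**Figure D5:**
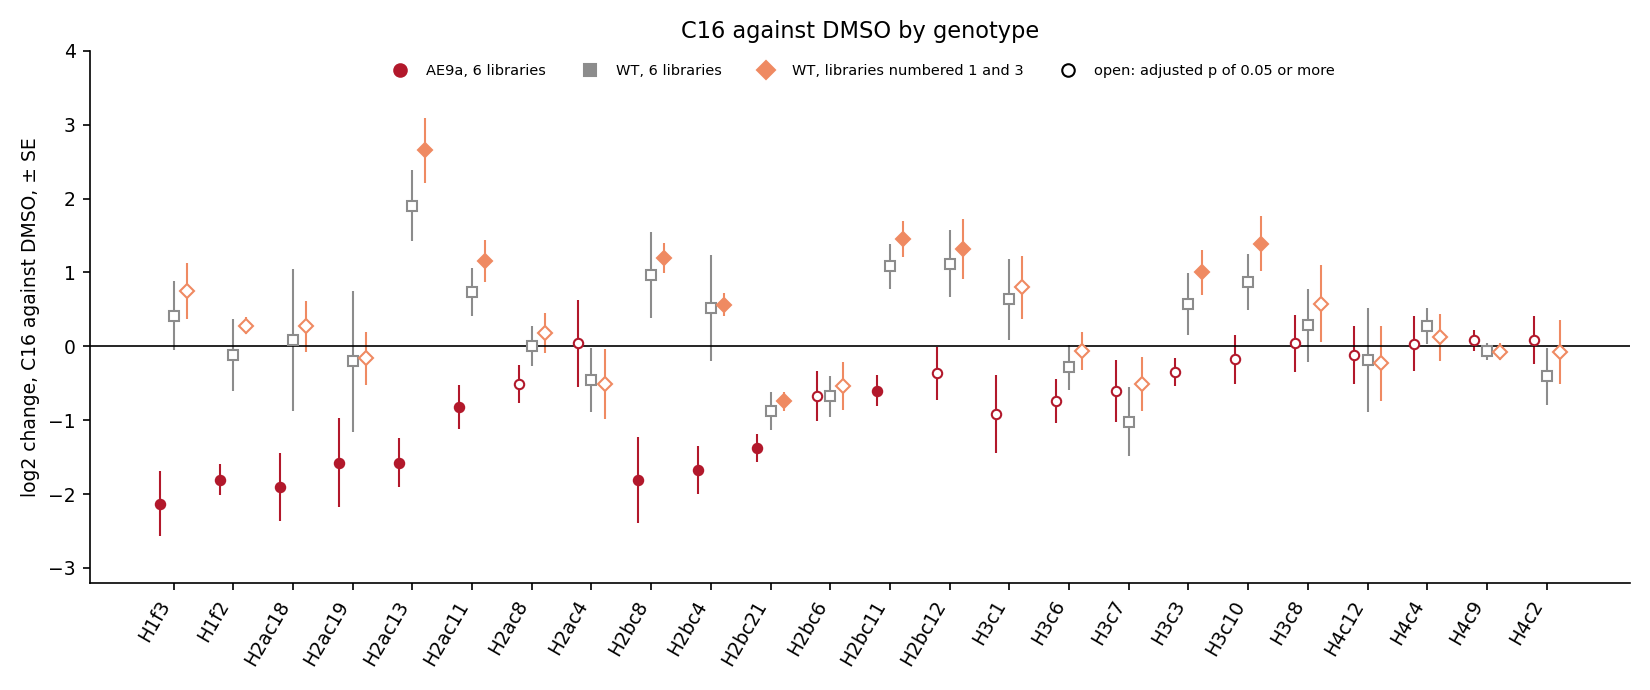
Log2 change ± SE of C16 against DMSO for the 24 members tested in AE9a cells, beside the change in WT cells with all 6 libraries and with the libraries numbered 1 and 3; filled where the adjusted p was under 0.05. H2ac13, H2ac11, H2bc8, H2bc4 and H2bc11 are filled below 0 in AE9a cells and filled above 0 in the 4 WT libraries, and H2bc21 is filled below 0 in both.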

How the data were processed

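The material was total RNA of cKit-selected mouse bone marrow, with extraction, libraries and sequencing on MGI instruments done by a service provider, per the labels' protocols. The authors deposited raw counts of fragments per gene, 1 table for each genotype. Per the file headers, featureCounts 1.6.2 counted read pairs over exons by gene on GRCm39, from primary alignments, with no strand option. Per the submitters' processing notes, the tools were HISAT2 2.1.0, featureCounts 2.0.3, DESeq2, fastp 0.23.2 and FastQC 0.11.9, and the 2 featureCounts versions differ. No column was left unmatched to a sample (0), and 0 pairs of libraries were identical.

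CPM here are a gene's count per 1000000 fragments of its library. Differences were tested with edgeR 4.0.16 in R 4.3.3 (quasi-likelihood test, TMM scaling, its default filter on low counts) on all genes, with p-values adjusted by Benjamini and Hochberg and called under 0.05. Treatments were set against each other in the 9 libraries of each genotype. Genotypes, and the interaction term, used all 18. The fits tested 24, 38 and 39 of the 67 members (AE9a, WT and both), with biological coefficients of variation of 0.103, 0.329 and 0.243. A member could pass the filter through the group in which it was high. Steps were tested on simulated data.

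The labels do not say whether libraries of a group came from separate animals or cultures. The p-values therefore set differences against the spread between these samples only. Totals of 16053727 to 27207748 fragments limit precision for members with few fragments, and counting error is only part of the spread. Named members were, in each type, the 2 with the highest CPM per kilobase, in each comparison up to 6 called members with the largest change whose higher group averaged at least 1 CPM, and up to 3 called against the majority. H2ac19 and H4c18, among others outside this rule, were named after their values were seen. The members, lists and tests were chosen with earlier results of these data known. The marker list for B cells was used without Vpreb1, which is not analysed here, and lists of T, NK, B cell and monocyte markers were also fitted: in C16 against DMSO of AE9a cells 0 of 0 T and NK genes, 1 of 3 B lineage genes (lower) and 3 of 6 monocyte genes (2 higher, 1 lower) were called.

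Same-numbered libraries deviated together in AE9a RE with DMSO (correlations 0.51, 0.34 and 0.43) and in AE9a C16 with RE (0.15, 0.15 and 0.16). They also did in all WT pairs of groups (0.6 to 0.89, led by the libraries numbered 2). AE9a C16 with DMSO was less even (0.06, 0.35 and 0.23), and AE9a DMSO with WT DMSO was negative (-0.04, -0.19 and -0.13). The replicate number was fitted as a block in every comparison as an alternative, also in those. Other alternatives were RLE and upper-quartile scaling, no filter, DESeq2 1.42.0, a single fit over 18 libraries, and leaving out single libraries or the 3 WT libraries numbered 2. Stem-loops came from GENCODE vM21 transcripts and promoters from RefSeq, both on GRCm38, matched by accession or symbol, and were not mixed with GRCm39 positions. Figures were drawn with matplotlib 3.10.9.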

Additional observations from a re-analysis of the deposited data

Results flagged for a closer look

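The response to C16 differed between AE9a and WT cells for 4 of 39 members tested. This was a test of the difference itself, the interaction term of edgeR's fit over 18 libraries. All 4 had a lower change in AE9a cells. Of all 15809 genes 8.29% had a lower change and 4.78% a higher one, so the count was near this background. Groups of 3 libraries are too small to be screened for single outlying values. H2ac13, an H2A gene, differed by -3.44 on the log2 scale and H2bc11, an H2B gene, by -1.63. Its divergent neighbour H2ac11 differed by -1.52 and the linker histone gene H1f3 by -2.49. In each the change was lower in AE9a cells than in WT cells. The libraries labelled AE9a C16 3 and WT C16 2, described above, enter all 4 values, and their part was tested only by leaving them out.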

How the results depend on the processing

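No called member reversed its direction in the alternatives run. Over called members, 405 alternatives kept the call and 105 lost it. Counts of called members were compared by size only, without regard to direction. Of these, 94 stayed within 1.5 times of the main count, 14 were larger and 16 smaller. Values that did not pass the test were not followed through all alternatives, and H1f2 for C16 against DMSO in WT cells turned, at -0.12 with all libraries and 0.28 without the WT libraries numbered 2. So did the median of DNA replication genes for AE9a against WT (-0.03 and 0.19). With 1 fit over all 18 libraries, the members called were 6 for C16 and 0 for RE against DMSO in AE9a cells, and 4 for C16 against DMSO and 7 for C16 against RE in WT cells; that fit uses a larger spread than the AE9a libraries alone. DESeq2 called 3 for C16 against DMSO in WT cells and 7 for the genotype difference in the C16 response. The replicate block gave 4 for C16 against DMSO and 5 for C16 against RE in WT cells and 10 for the genotype difference under C16, and moved no other count by over 1.5 times. In AE9a cells it gave 11 for C16 against DMSO, 10 for RE against DMSO and 11 for C16 against RE. With no filter on low counts, 0 were called for C16 against RE in WT cells. Without the 3 WT libraries numbered 2 the counts were 14 and 11 for C16 against DMSO and against RE in WT cells. They were 10 for AE9a against WT and 14 for the genotype difference under C16, or 13 when the third AE9a C16 library was also left out. Without the 3 WT libraries numbered 2 more of all genes were called as well, as given above. Apart from that setting and the AE9a fit without AE9a C16 3, counts over all genes in the alternatives are not given here. The member counts of those alternatives therefore have no background. Leaving out single libraries gave 7 to 9 for C16 against DMSO, 4 to 8 for RE against DMSO and 8 to 11 for C16 against RE in AE9a cells. It gave 0 to 3 for C16 against DMSO and 0 to 2 for C16 against RE in WT cells, 2 to 5 for AE9a against WT, and 2 to 10 for the genotype difference under C16. The cause of these shifts was not tested. Depth limits a share of the members: 21 of 67 had under 10 fragments in every library.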
